A study of Mus musculus with 3 samples.

Results

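The genes of the lysosome described here are the subunits of its proton pump, 9 acid hydrolases, 6 membrane proteins, 2 soluble luminal proteins and the transcription factor gene Tfeb, read in RNA of 4T1 cancer stem cell spheroids (CSCsp). Pump genes were taken by name, as all symbols that begin with Atp6v0 or Atp6v1 plus Atp6ap1 and Atp6ap2, which gave 25 genes. The other 18 genes came from a given list. Of these 43 members, among 24402 gene symbols in all, 37 had an FPKM (fragments scaled by transcript length and library depth) of at least 1 in at least 1 library, among 11323 such genes. The 6 members under that level were Atp6v0a4, Atp6v0d2, Atp6v1c2, Atp6v1e2, Atp6v1g2 and Atp6v1g3, each a further copy of a subunit whose main copy was measured.

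4T1 is a mammary carcinoma line of BALB/c mice, and CSCsp are spheroids grown from it without attachment for 7 days and retained on a 40 µm strainer. The first library, R, was labelled as a co-culture with tumor antigen primed splenocytes after reinforced activation. By the methods, these splenocytes came from mice that had carried 4T1 tumors for 28 days and were activated again on anti-CD3/CD28 beads in IL2. The second, P, was labelled as a co-culture with primed splenocytes, which by the methods went without that step. The third, N, was labelled as no co-culture. Tumors were placed in female mice of 8 weeks, exposure lasted 2 days, and single splenocytes were washed away through a strainer. The methods describe RNA of independent experiments as multiplexed for sequencing, and the data hold 1 library per condition. Every difference below therefore compares libraries, with no SD, no replicate check and no test. The labels of N and P are in doubt, because the name deposited with N speaks of the saline that held primed splenocytes, whereas the one deposited with P speaks of no treatment. Libraries are named by their labels, and each comparison was also made with N and P exchanged.

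Lysosomes digest proteins, glycans, nucleic acids and lipids with hydrolases that work at acid pH. The acid is supplied by the vacuolar proton pump, in which the V1 sector on the cytosolic face splits ATP and turns a rotor that drives protons through the membrane sector, V0. Many of these genes carry a palindromic E-box motif close to their start site that is bound by the transcription factor TFEB and its relatives MITF and TFE3. Cancer cells use lysosomes to recycle the content of autophagosomes.

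The letters of that motif, CACGTG, were looked for in promoter windows of RefSeq (build GRCm38.p6, 250 bases before to 50 after a gene's start). The letters read the same on both strands. Windows were at hand for 33 of the 43 members, and 11 of the 33 (33.3%) held the motif, against 8.09% of 27025 genes with a window and 11.9% of the 8527 of them with an FPKM of at least 1. The longer form TCACGTGA, which contains the shorter one, stood in the windows of 6 members (18.2%), against 1.12% of all genes and 2.31% of those with an FPKM of at least 1. The stretches around the matches of 8 members are shown because these genes include both pump sectors, hydrolases and membrane proteins, with CACGTG in capitals. A match is a description of letters and says nothing on binding in these cells.
Mcoln1, chr8:3500434-3500493, + strand: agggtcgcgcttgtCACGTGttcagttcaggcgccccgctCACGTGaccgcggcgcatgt
Lamp1, chr8:13159086-13159165, + strand: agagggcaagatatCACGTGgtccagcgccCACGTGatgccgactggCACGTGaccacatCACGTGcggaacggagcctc
Ctsa, chr2:164833747-164833797, + strand: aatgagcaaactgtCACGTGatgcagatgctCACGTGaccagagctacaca
Ctsd, chr7:142387906-142387939, - strand: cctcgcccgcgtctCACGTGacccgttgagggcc
Atp6v1a, chr16:44139371-44139404, - strand: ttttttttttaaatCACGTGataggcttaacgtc
Atp6v0b, chr4:117887328-117887379, - strand: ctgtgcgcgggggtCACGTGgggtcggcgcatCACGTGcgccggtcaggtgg
Atp6v0d1, chr8:105566048-105566081, - strand: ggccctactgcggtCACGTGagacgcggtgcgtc
Atp6v0e, chr17:26676385-26676418, + strand: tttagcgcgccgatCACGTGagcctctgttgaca
Lamp1, which codes for the most used marker of lysosomal membrane, had 4 matches between 61 and 15 bases before its start. Ctsa had 2, both of the longer form, and the 3 other members with a match were Ctsl, Gaa and Glb1. The log2 ratios of R to N had a median of -0.21 over the 11 members with the motif and of -0.05 over the 17 measured members with a window but no motif, and nothing on the motif is read from this.

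Aligned reads amounted to 19178982 fragments in R, 17887652 in P and 17894139 in N, as recovered from coverage and FPKM. Between 10920 and 10965 genes reached an FPKM of 1 in a library. Epithelial markers were present, with 9 of 10 measured and Krt5 listed at 0. Their FPKM summed to 1798 in R, 2134 in P and 2423 in N, with a median log2 ratio of -0.42 in R against N and 2 genes, Krt14 and Krt19, at least 1.5-fold lower in R. Genes used as leukocyte markers were detected: 11 of 47 were at 1 FPKM or more in R, 2 in P and 10 in N. The FPKM of all 47 summed to 77.3 in R, 28.5 in P and 88.4 in N. Most of the sum in P lay in the markers common to leukocytes (13.6 FPKM) and those of neutrophils (13.1), each with 1 gene at that level. Whether cells of the spheroids made part of this RNA was not tested. Of 11 macrophage markers only 2 reached 1 FPKM in any library, and they ran in opposite directions between R and N. These were Mpeg1 (24.5 FPKM in R, 0.227 in P and 0.697 in N) and Lyz2 (6.51 in R, 0.313 in P and 28.9 in N). Of 11 neutrophil markers 7 reached that level, and the 11 summed to 22.9 FPKM in R, 13.1 in P and 37.8 in N. The 12 markers of T and NK cells summed to 2.91 FPKM in R, 0.505 in P and 0.89 in N. Gzmb, coding for a granule protease of such cells, was the 1 of them above 1 FPKM, with 1.58 in R, 0 in P and 0.275 in N, and Cd8b1, Ncr1 and Nkg7 were listed at 0 in all 3 libraries. The sum over all 47 was lowest in P, as were 13 of the 37 measured members, and its part in their values was not tested. By label P was exposed to splenocytes and N was not, yet the sum was higher in N. With N and P exchanged, the lowest sum would be that of the library without splenocytes. In such bulk RNA fewer cells of a type and less RNA per cell cannot be told apart.

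Lysosomal transcripts were abundant in all 3 libraries and differed little between them. The 37 measured members together made up 1.12% of all FPKM in R, 1.05% in P and 1.17% in N. Psap, Cd63, Ctsl and Ctsd led in each library, each at 401 FPKM or more, while Atp6v0a1, Atp6v0a2, Atp6v0e2, Atp6v1b1, Mcoln1 and Npc1 lay under 10 FPKM in each. The level was highest in N for 18 of the 37 members, in R for 13 and in P for 6. It was lowest in R for 19, in P for 13 and in N for 5.

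**Figure D1:**
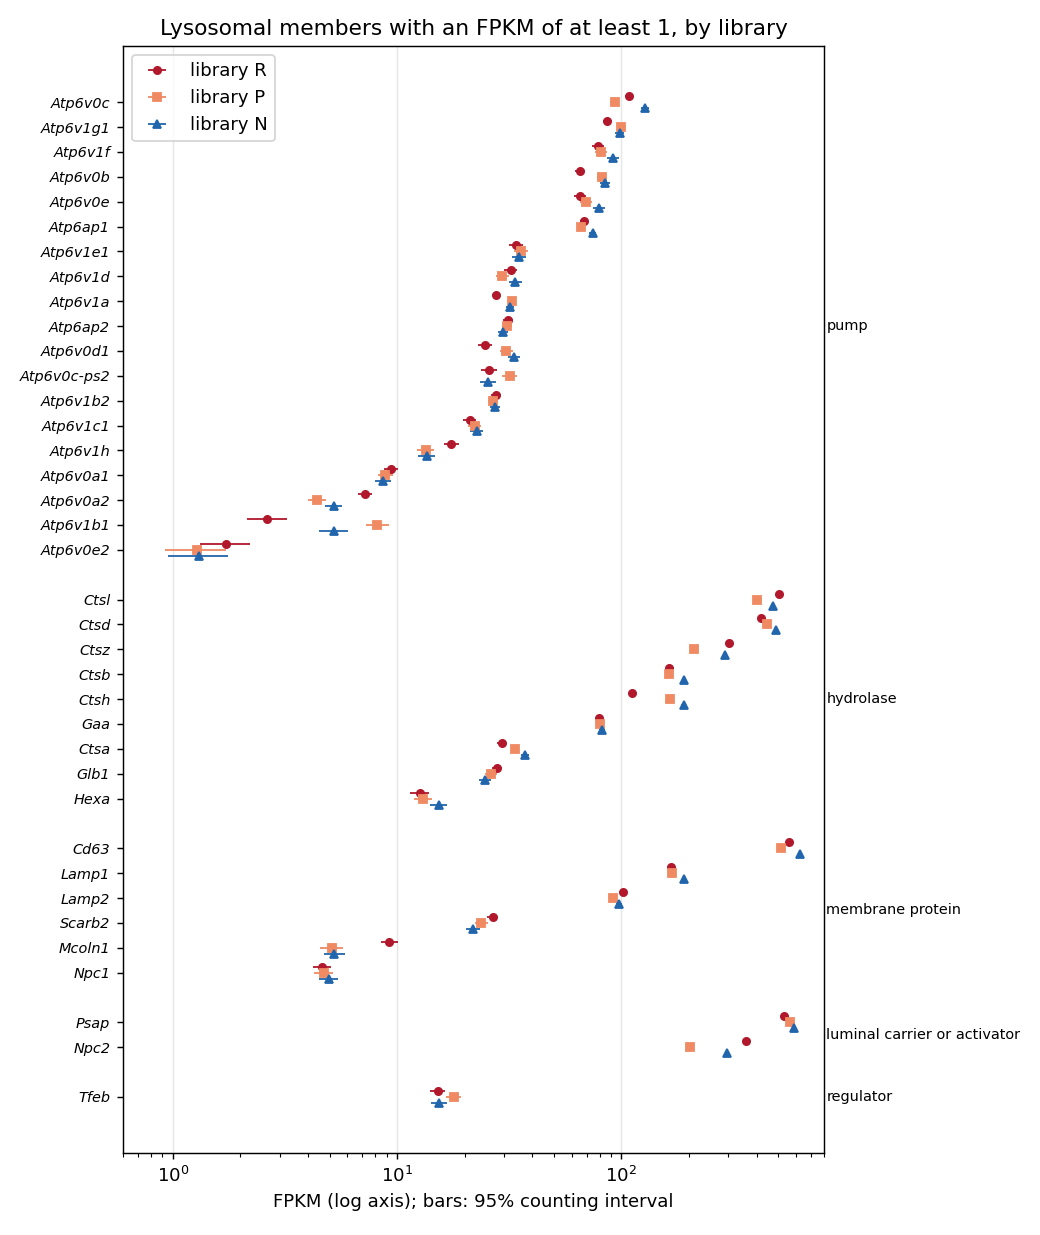
FPKM (log axis) of the 37 measured members in the libraries R, P and N, by class and, within a class, by mean level. Horizontal bars are exact 95% Poisson intervals, which cover counting error only; most members have their 3 points side by side, Mcoln1 has R set apart, and Atp6v1b1 has all 3 libraries apart, at 2.64 in R, 8.17 in P and 5.21 in N.

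Members were counted as apart between libraries at a ratio of 1.5 or more, on FPKM with 0.1 added. For R over N, 1 of the 37 was higher (Mcoln1) and 2 lower (Atp6v1b1 and Ctsh), while 7.93% of the 11323 genes with an FPKM of at least 1 were higher and 4.52% lower. For R over P, 3 were higher (Atp6v0a2, Mcoln1 and Npc2) and 1 lower (Atp6v1b1), against 9.12% and 5.33% of all genes. For P over N, 1 was higher (Atp6v1b1) and 0 lower, against 2.26% and 3.79% of all genes. The shares of members apart were thus near or under those of all genes.

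Smaller shifts had a direction among the listed members of some classes. For R over N the log2 ratios had a median of -0.10 in the pump, -0.22 in hydrolases and -0.02 in membrane proteins, against 0.08 over all genes. For R over P the medians were -0.05 in the pump, -0.01 in hydrolases and 0.13 in membrane proteins, against 0.03 over all genes. For P over N they were -0.03 in the pump, -0.20 in hydrolases and -0.08 in membrane proteins, against 0.03 over all genes. The hydrolase medians are those of the 9 listed genes. In the further lists described below, R over N had a median of -0.0041 in proteases and 0.024 in glycosidases and sulfatases. It was 0.047 in lipases, phosphatases and nucleases. For P over N these 3 lists had medians of -0.13, -0.07 and 0.0044, in that order. For R over N the 95% Clopper-Pearson interval, for counting error alone, lay wholly under 1 in 17 of 37 members. It lay wholly above 1 in 9. Over all genes the intervals under 1 were the fewer, with 2213 of 11323 under and 3830 above. Between R and P the interval lay under 1 in 11 members and above 1 in 10, against 2761 and 3455 of all genes. Between P and N it lay under 1 in 18 members and above 1 in 3, against 1722 and 2474 of all genes. Members had a median of 32.1 FPKM in R, 33.5 in P and 35.0 in N, against 9.61 in R, 8.97 in P and 8.86 in N over all genes. Intervals are narrower at higher levels and leave out 1 at smaller shifts, so these counts give direction and not size.

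**Figure D2:**
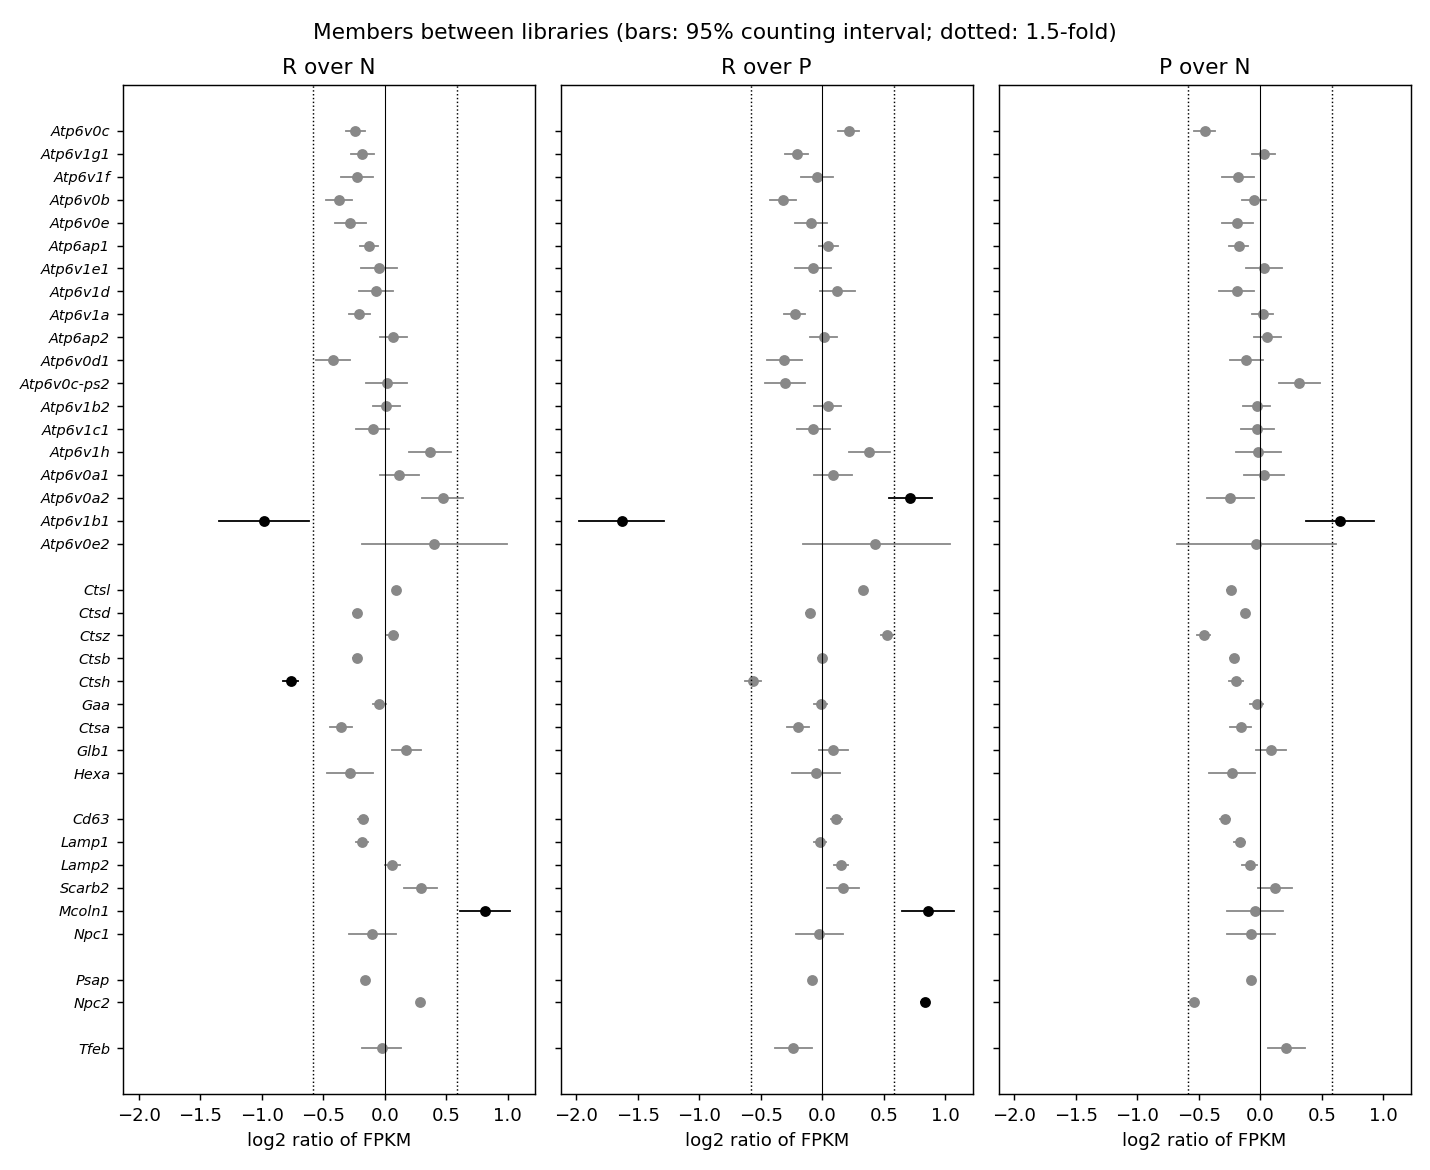
Log2 ratio of FPKM, without a pseudocount, of each measured member in the 3 comparisons (R over N, R over P, P over N), with the exact 95% counting interval as a bar and dotted lines at 1.5-fold. Black points passed 1.5-fold: 3 members between R and N, 4 between R and P and 1 between P and N.

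In the V1 sector 1 subunit gene was more than 1.5-fold apart between libraries and the other measured ones were not. Atp6v1b1 (chr6:83743017-83758810) codes for a form of the nucleotide-binding subunit B best known from kidney and inner ear. It had 2.64 FPKM in R (interval 2.14 to 3.22), 8.17 in P (7.24 to 9.18) and 5.21 in N (4.48 to 6.03). The 3 intervals did not overlap. R was 1.97-fold lower than N (1.53 to 2.55) and 3.09-fold lower than P (2.45 to 3.93), and P was 1.57 times N (1.3 to 1.9). The level is low, with 98 fragments in R, 281 in P and 180 in N. The same order held in each of the 14 exons of NM_134157, which are not independent of each other.

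The common form of subunit B, Atp6v1b2, had 27.6 FPKM in R, 26.8 in P and 27.3 in N, and its ratios were all between 0.98 and 1.03. Atp6v1a, the catalytic subunit, had 27.7 FPKM in R, 32.4 in P and 32.0 in N. R was below both other libraries there, at 0.866 times N (0.817 to 0.919). Atp6v1g1, a subunit of the peripheral stalks, ran in the same order, with 86.4 FPKM in R, 99.9 in P and 98.1 in N. Atp6v1e1, which pairs with it in the stalks, had 33.9 FPKM in R, 35.7 in P and 35.0 in N, within counting error. The rotor subunit Atp6v1d had 32.1 FPKM in R, 29.5 in P and 33.7 in N. Its partner Atp6v1f had 78.7 FPKM in R, 81.2 in P and 91.9 in N. Both were highest in N. For Atp6v1f R was 0.856 times N (0.783 to 0.935), and for Atp6v1d P was 0.875 times N (0.793 to 0.965), intervals that left out 1. The value for Atp6v1d depends in part on transcript length. An assembled transcript of 1514 bases held 92.3% of its FPKM in P, and the RefSeq transcript has 1410 bases. Counted as fragments without division by length, P was 0.935 times N at equal depth. Atp6v1c1, whose product ties V1 to V0, had 21.1 FPKM in R, 22.2 in P and 22.6 in N, and its libraries lay within counting error of each other. Atp6v1h, the subunit that governs ATPase activity, had 17.5 FPKM in R, 13.4 in P and 13.6 in N. Among the V1 genes it alone had an R over N interval wholly above 1, with R at 1.29 times N (1.15 to 1.45).

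In the V0 sector Atp6v0b, Atp6v0c, Atp6v0d1 and Atp6v0e were lower in R than in N and Atp6v0a2 was higher, with intervals that left out 1. Atp6v0a2 (chr5:124629052-124724455) codes for a form of the large subunit a that is known from Golgi and endosomes. It had 7.22 FPKM in R (6.71 to 7.76), 4.40 in P (3.99 to 4.84) and 5.21 in N (4.76 to 5.69). R stood above both, at 1.64 times P (1.45 to 1.85) and 1.39 times N (1.24 to 1.56), and was the highest library in each of the 20 exons of NM_011596. Atp6v0a1, the form best known from neurons, had 9.39 FPKM in R, 8.86 in P and 8.65 in N, which lies within counting error. Atp6v0b, a subunit of the proteolipid ring, had 65.4 FPKM in R, 81.7 in P and 84.6 in N, so that R was 0.773 times N (0.719 to 0.832). Atp6v0d1, which couples the ring to the rotor, had 24.8 FPKM in R, 30.7 in P and 33.2 in N, which put R at 0.746 times N (0.677 to 0.821). Both are among the genes whose motif stretch is shown above, as is Atp6v0e, with 65.4 FPKM in R, 69.8 in P and 79.3 in N. Its paralog Atp6v0e2 had 1.73 FPKM in R, 1.28 in P and 1.31 in N, on no more than 61 fragments.

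Atp6v0c, the main proteolipid of the ring, had 108 FPKM in R, 93.2 in P and 127 in N. The pseudogene Atp6v0c-ps2, which the name rule also takes, had 25.7 FPKM in R, 31.7 in P and 25.4 in N. The files place both in 1 locus of chromosome 17, whereas RefSeq places the pseudogene on chromosome 6, so reads may be split between them. Together they had 134 FPKM in R, 125 in P and 153 in N, with R at 0.875 times N (0.833 to 0.919) and P at 0.817 times N (0.777 to 0.860). The accessory proteins were nearly level: Atp6ap1 had 68.1 FPKM in R, 66.0 in P and 74.5 in N. Atp6ap2, also known as the prorenin receptor, had 31.2 FPKM in R, 30.9 in P and 29.7 in N.

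Levels of paralogs can be compared per length, as FPKM, within a library. Subunit a was mostly Tcirg1, the form of osteoclasts and secretory lysosomes, which lies outside the name rule. It had 111 FPKM in R, 76.1 in P and 89.3 in N, and made up 87.0% of subunit a in R, 85.2% in P and 86.6% in N. Much of it came from assembled transcripts, and RefSeq transcripts of Tcirg1 alone had 42.3 FPKM in R, 42.7 in P and 46.1 in N. The share was then 71.8% in R, 76.3% in P and 76.9% in N. Atp6v0a4 was listed at 0 in all 3 libraries. Atp6v1b1 made up 8.74% of subunit B in R, 23.4% in P and 16% in N, while Atp6v1b2 kept nearly the same level. For subunits C, d, E, G and e 1 gene held at least 97.4% of the sum in every library.

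**Figure D3:**
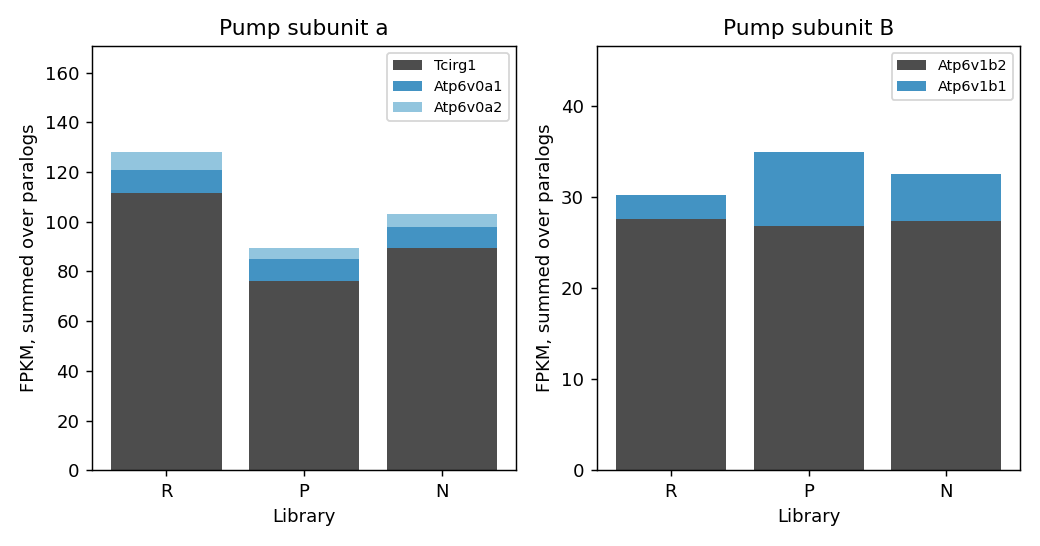
FPKM of the measured paralogs of pump subunit a (left) and subunit B (right), stacked, in the libraries R, P and N. Tcirg1 fills most of each bar on the left, and on the right the Atp6v1b1 segment is 2.64 FPKM in R, 8.17 in P and 5.21 in N over an Atp6v1b2 segment of about equal height.

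Among the hydrolases, cathepsin H set R apart, and 6 of the 9 genes were lowest in R. The epithelial marker sum was lowest in R too, and its part in these values was not tested. Ctsh (chr9:90054267-90076095), an aminopeptidase among the cysteine cathepsins, had 111 FPKM in R (108 to 115), 165 in P (160 to 169) and 189 in N (184 to 194). R was 1.70-fold lower than N (1.63 to 1.77) and 1.48-fold lower than P (1.42 to 1.55), just short of 1.5. All 12 exons of NM_007801 were lower in R than in P and N, and lower in P than in N. Ctsa, a carboxypeptidase that also protects other lysosomal enzymes, had 29.2 FPKM in R, 33.5 in P and 37.3 in N, with R at 0.783 times N (0.737 to 0.831). Ctsd, the main aspartic protease, had 417 FPKM in R, 448 in P and 487 in N. It was lowest in R and highest in N, with R at 0.857 times N (0.839 to 0.876). Ctsb, a cysteine protease, had 163 FPKM in R, 163 in P and 190 in N, so that R and P were about equal and both under N. Hexa, which removes hexosamines from gangliosides, had 12.6 FPKM in R, 13.1 in P and 15.3 in N.

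Cathepsins L and Z were instead lowest in P. Ctsz, a carboxypeptidase, had 303 FPKM in R, 210 in P and 289 in N, with R 1.44 times P (1.39 to 1.49) and P 1.37-fold lower than N (1.33 to 1.42). Ctsl, an endopeptidase, had 505 FPKM in R, 401 in P and 473 in N. The leukocyte marker sum was also lowest in P, but it was highest in N whereas both genes were highest in R. Its part in these values was not tested. The 2 remaining enzymes, both glycosidases, differed least: Gaa, which degrades glycogen, had 79.6 FPKM in R, 80.4 in P and 81.9 in N. Glb1, the lysosomal beta-galactosidase, shares its locus with Tmppe and had 27.9 FPKM in R, 26.3 in P and 24.7 in N.

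Among the membrane proteins Mcoln1 was the one set apart. Mcoln1 (chr8:3500519-3515383) codes for the lysosomal calcium channel TRPML1, and its 2 motif matches are among those shown above. It had 9.24 FPKM in R (8.44 to 10.1), 5.10 in P (4.54 to 5.72) and 5.26 in N (4.71 to 5.85). R was 1.76 times N (1.53 to 2.03) and 1.81 times P (1.56 to 2.1), and P and N overlapped. The gene shares a StringTie locus with Pnpla6, and its FPKM is the sum of the RefSeq transcript NM_053177 and a longer assembled transcript of 4208 bases. NM_053177 alone had 6.51 FPKM in R, 2.43 in P and 1.55 in N, and its 14 exons all ran in that order. The assembled transcript had 2.73 FPKM in R, 2.68 in P and 3.71 in N. Counted as fragments without division by length, the gene had 489 in R, 295 in P and 339 in N, which at equal depth is 1.35 times N and 1.55 times P. The size of the difference thus depends on how reads were shared between the transcripts.

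Lamp1 had 167 FPKM in R, 169 in P and 190 in N. Lamp2, its partner and the receptor of chaperone-mediated autophagy, had 102 FPKM in R, 91.7 in P and 97.4 in N. Of its 3 RefSeq forms, which differ at the end that spans the membrane, NM_001017959 had 51.1 FPKM in R, 51.8 in P and 54.5 in N. NM_010685 had 49.1 FPKM in R, 38.5 in P and 41.4 in N, so the 2 forms did not run in the same order. NM_001290485 had 0.232 FPKM in R and was listed at 0 in P and N. Cd63, a tetraspanin of lysosomes and exosomes, had 556 FPKM in R, 514 in P and 627 in N. Scarb2, which carries glucocerebrosidase to the lysosome, had 26.7 FPKM in R, 23.7 in P and 21.8 in N, with R at 1.22 times N (1.12 to 1.34). Npc1, which exports cholesterol from the lysosome, had 4.62 FPKM in R, 4.71 in P and 4.95 in N, within counting error.

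Npc1 receives its cholesterol from a soluble protein, NPC2, whose gene was far more abundant. Npc2 (chr12:84754559-84773112) had 360 FPKM in R (356 to 365), 203 in P (199 to 206) and 294 in N (290 to 299). R was 1.78 times P (1.74 to 1.82) and 1.22 times N (1.2 to 1.25), and P was 1.45-fold lower than N (1.42 to 1.49). Each of its 4 exons was highest in R and lowest in P. P was also lowest in leukocyte marker sum, whose part in this was not tested. Psap, the precursor of the saposins that present lipids to hydrolases, had 529 FPKM in R, 562 in P and 591 in N. Tfeb, whose product drives many of these genes, had 15.2 FPKM in R, 17.9 in P and 15.4 in N. R and N were within counting error for Tfeb, and P was 1.16 times N (1.04 to 1.29).

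**Figure D4:**
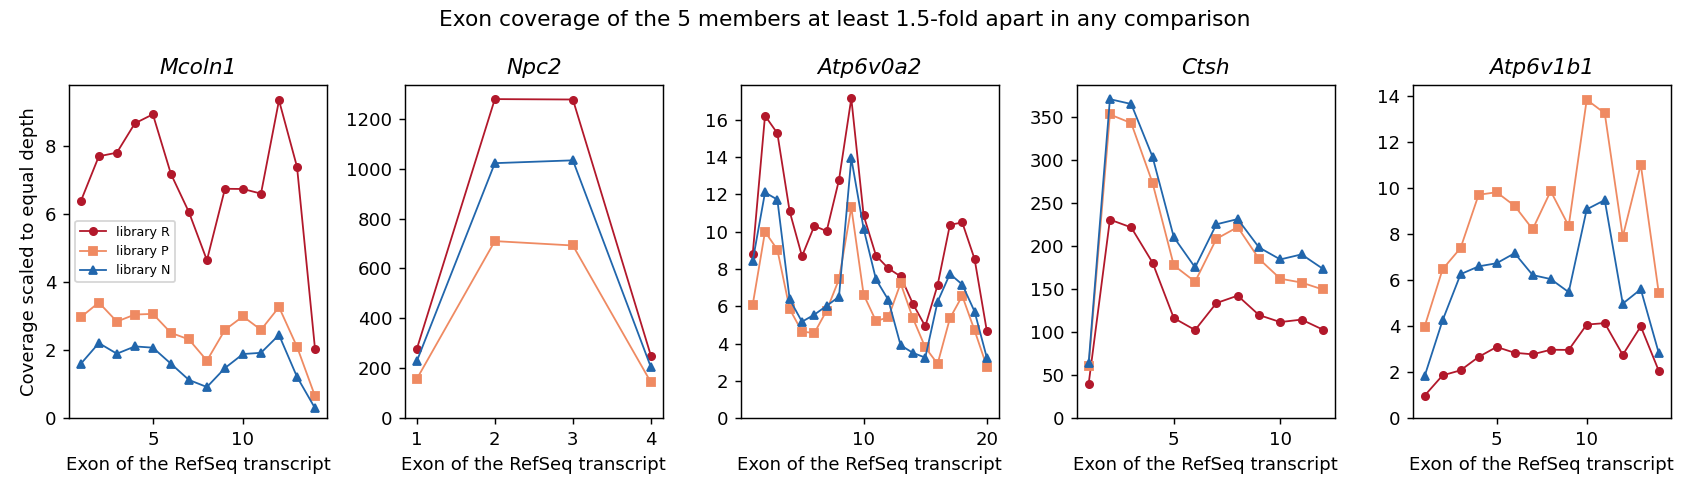
Coverage per exon of the RefSeq transcript, scaled to equal depth, in the libraries R, P and N for the 5 members at least 1.5-fold apart in any comparison. R is highest at every exon of Mcoln1, Npc2 and Atp6v0a2 and lowest at every exon of Ctsh and Atp6v1b1.

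Exon coverage was estimated along with the transcripts, so exons of a gene are not independent of each other. Transcripts assembled from the reads held 7.28% of the members' FPKM in R, 9.74% in P and 8.41% in N, spread over 17 genes, and in a few genes their share differed by library. In Atp6v1d the RefSeq transcript had 32.0 FPKM in R, 2.27 in P and 33.6 in N, while an assembled transcript had 0.110 in R, 27.2 in P and 0.0541 in N. Summed, the gene was nearly level. In Atp6v1a the RefSeq transcript had 18.0 FPKM in R, 11.5 in P and 18.8 in N, and in Ctsl it had 265 in R, 135 in P and 204 in N. With RefSeq transcripts alone these 3 genes would count as at least 1.5-fold higher in R than in P.

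**Figure D5:**
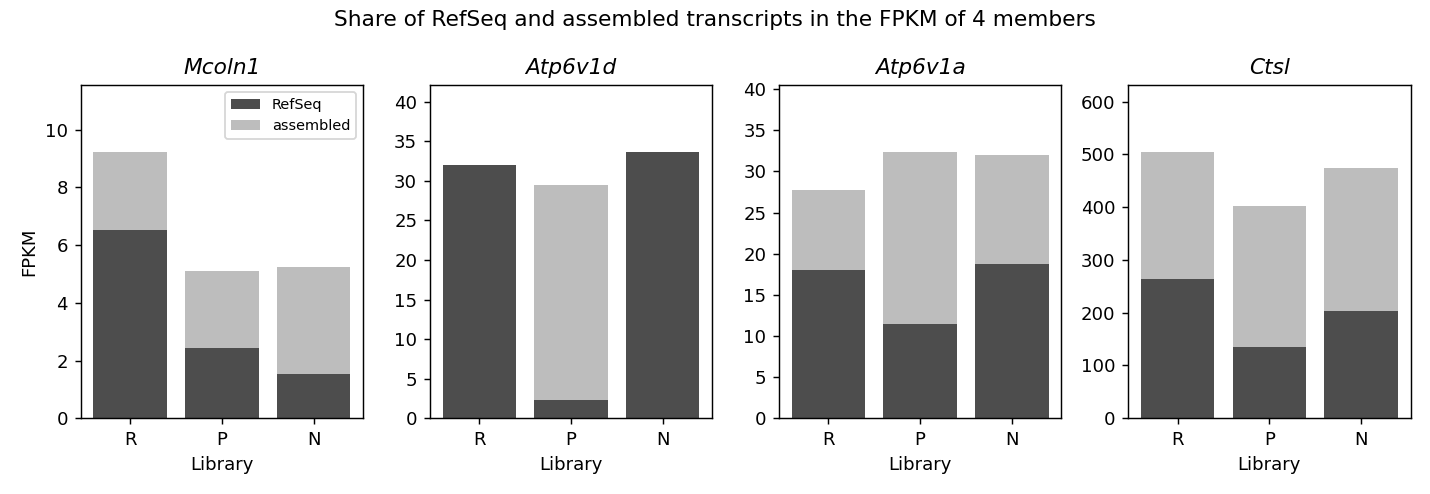
FPKM of RefSeq transcripts (dark) and assembled transcripts (light), stacked, for Mcoln1, Atp6v1d, Atp6v1a and Ctsl in the libraries R, P and N. The dark part of Atp6v1d is 32.0 in R, 2.27 in P and 33.6 in N under totals of 32.1 in R, 29.5 in P and 33.7 in N.

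Other genes of the lysosome were described by lists of proteases, glycosidases and sulfatases, lipases and nucleases, and membrane proteins. None of 10 measured proteases was 1.5-fold apart between R and N, and 1 was higher in R than in P. That gene, named like Hyal1 and Laptm5 after its values were seen, was Ctss, a cathepsin of antigen-presenting cells, with 2.98 FPKM in R, 0.0734 in P and 3.59 in N. Its order of libraries was that of the leukocyte marker sum, whose part in this was not tested. Of 21 measured glycosidases and sulfatases 0 were higher and 1 lower for R over N, the hyaluronidase gene Hyal1 at 0.698 FPKM in R, 0.241 in P and 1.54 in N. Of 16 lipases, phosphatases and nucleases 1 was higher and 0 lower for R over N. It was Rnaset2b, an acid ribonuclease gene that shares its locus with Rnaset2a, with 38.3 FPKM in R, 26.1 in P and 23.3 in N. Other membrane proteins had 2 of 24 higher and 0 lower in R than in N, and 5 higher and 0 lower in R than in P. In P compared with N 1 was higher and 4 were lower. Over all genes these shares were 7.93% higher and 4.52% lower in R than in N, 9.12% and 5.33% in R than in P, and 2.26% and 3.79% in P than in N. Slc15a3, a transporter of histidine and peptides, had 27.5 FPKM in R, 11.3 in P and 15.0 in N, so that R was highest with no overlap of intervals. Slc17a5, which exports sialic acid, had 5.39 FPKM in R, 3.35 in P and 3.61 in N. Cd164, a sialomucin, had 122 FPKM in R, 76.9 in P and 129 in N, and was low in P alone. Slc11a2, an iron transporter, had 16.5 FPKM in R, 4.08 in P and 8.47 in N, but its RefSeq transcripts alone had 1.25 in R, 3.41 in P and 3.05 in N, the opposite order. The fifth, Laptm5, a lysosomal protein of blood cells, had 1.35 FPKM in R, 0.0842 in P and 1.94 in N.

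Genes that regulate, sort or assemble the same machinery were counted in the same way. Of 15 measured regulators none was 1.5-fold apart between R and N. In R compared with P 1 of the 15 was lower, against 5.33% of all genes. It was Flcn, a brake on TFEB and TFE3, with 18.0 FPKM in R, 31.1 in P and 25.9 in N. Of 9 measured sorting genes 1 was higher for R over N, against 7.93% of all genes. This was Gnptab, which makes the mannose 6-phosphate tag of hydrolases, with 5.46 FPKM in R, 3.34 in P and 3.33 in N. The 10 measured pump genes outside the name rule had a median log2 ratio of R to N of 0.23, whereas the pump members had -0.10. With P in place of N, these medians were 0.15 and -0.05. The lower pump median thus held for the members only. Of the 10 genes, 2 were lower for R over N, against 4.52% of all genes, and 2 higher for R over P, against 9.12%. Rnasek, coding for a small protein bound to the pump, had 31.1 FPKM in R, 33.8 in P and 48.4 in N, and shares its locus. Ccdc115, an assembly factor, had 4.21 FPKM in R, 6.28 in P and 6.53 in N. Those higher against P were Vma21, another assembly factor, with 6.98 FPKM in R, 4.35 in P and 5.16 in N, and Wdr7, named after its values were seen, with 3.62 in R, 2.29 in P and 3.02 in N. With RefSeq transcripts alone the log2 ratio of R to P was -0.06 for Flcn and 0.0042 for Vma21, and Wdr7 was at most at 0.0016 FPKM. With N and P exchanged, R over N would read as R over P does above. The exchange cannot change which members R set apart from both other libraries, so it is no check on them. The 2 such members were Mcoln1, which was higher, and Atp6v1b1, which was lower. Counted as fragments without division by length, Mcoln1 in R was 1.35 times N, short of 1.5. At a fold of 2 neither gene was apart between R and N.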

How the data were processed

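RNA of CSCsp was measured in 3 libraries, 1 per condition, and conditions came from the labels. The authors aligned reads with HISAT2 (version 2.2.0) and quantified transcripts with StringTie (2.1.3 in the submitters' processing notes, 2.1.5 in the file headers) on a merged set of RefSeq and assembled transcripts. Coverage, FPKM and TPM were deposited for each transcript, as the authors' StringTie run wrote them. The notes name mm9, but 99.3% of 23185 gene symbols and 42 of 43 members overlap their GRCm38 position.

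FPKM was summed per gene over its RefSeq transcripts and the assembled transcripts that overlap its exons most on the same strand. Of 12520 assembled transcripts 9352 were given a gene, and 10.7% to 12.3% of FPKM had none. Fragments were taken as aligned bases divided by 300 per read pair, and exact intervals at 95% cover counting error only. Ratios used a pseudocount of 0.1 FPKM for counts and medians, and members apart were counted at 1.5-fold. Every member is named, and from each other lysosomal list up to 4 genes of at least 5 FPKM that were 1.5-fold apart in any comparison. Members and lists were chosen with earlier results of these data known. Alternatives were pseudocounts of 1 and 0.01, TPM, no filter or a filter of 5 FPKM, rescaling, RefSeq or highest transcripts alone, unshared loci, exchanged labels, a fold of 2 and, chosen after seeing the data, fragments not divided by length. Counts and fragment intervals were tested on simulated Poisson counts. Those hold no spread between experiments and no sharing of reads between transcripts, so neither was checked. Scripts ran in Python 3.11.15 with SciPy 1.17.1, pandas 2.3.3, NumPy 2.4.6 and Matplotlib 3.10.9.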

Additional observations from a re-analysis of the deposited data

How the results depend on the processing

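No paired analysis was possible because each condition had 1 library. Counts stayed within 1.5 times with TPM, a pseudocount of 0.01 FPKM and a filter of 5 FPKM. Class medians then stayed between the median lower and the median upper bound of their members' counting intervals, which is not an interval of the median itself. With a pseudocount of 1, P over N had 0 members higher. A fold of 2 left none (0) higher or lower between R and N and 0 higher in the other comparisons, with Atp6v1b1 still lower for R over P. Without a filter, R over P had 5 higher and P over N 2 lower. Rescaling by the median ratio of 10583 genes (R at 1.05 times N, P at 1.02 times N) gave 2 lower for R over P, Ctsh joining, and a hydrolase median of -0.30 for R over N. RefSeq transcripts alone gave 6 higher for R over P, 2 higher and 3 lower for P over N, and a membrane protein median of 0.18 for R over N. The highest transcript alone gave 5 higher for R over P, and 2 higher and 2 lower for P over N. Leaving out members with a shared locus, or not dividing fragments by length, left 0 higher for R over N, since Mcoln1 dropped out.

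The share of Tcirg1 in subunit a was 71.8% in R, 76.3% in P and 76.9% in N with RefSeq transcripts alone, and 81.4% in R, 73.7% in P and 74.8% in N with the highest transcript alone. With N and P exchanged, R over N had 3 higher and 1 lower, R over P 1 higher and 2 lower, and P over N 0 higher and 1 lower. The medians were then -0.014 in hydrolases and 0.13 in membrane proteins between R and N, -0.22 in hydrolases and -0.017 in membrane proteins between R and P, and 0.20 in hydrolases and 0.079 in membrane proteins between P and N. The log2 ratio of Atp6v1b1 for P over N became -0.64, Atp6v1b2 made up 76.6% of subunit B in N and 84.0% in P, and Tcirg1 85.2% of subunit a in N and 86.6% in P. Depth limited Atp6v0e2 most, since with at most 61 fragments a library its intervals took in a ratio of 1 throughout, and 1 library per condition leaves the spread between experiments unknown.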
